A study of Mus musculus with 17 samples.

Results

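The 43 genes described here are interferon-stimulated genes of the mouse, taken by symbol from a list of genes that are known to be switched on by interferons. All 43 were found among the 52850 gene symbols of the RNA-seq count tables, on 1 line each, and all 43 were among the 18329 genes that passed the filter on low counts. They were set in 5 role groups: 4 transcription factors, 6 sensors of foreign or misplaced nucleic acid, 21 antiviral effectors, 7 interferon-inducible GTPases and 5 genes of antigen presentation. Their levels were compared over 12 libraries. The study concerns supratentorial ependymoma, a forebrain tumour that can be driven by fusions of YAP. YAP is a transcriptional coactivator restrained by the Hippo pathway.

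YMdIDR stands for 3 libraries whose label gives overexpression of YAP-MΔIDR, a form of YAP-M that the labels mark as ΔIDR. Their source label names brain tumour tissue, while their tissue label names neural progenitor cells made from embryonic stem (ES) cells, so the kind of sample was not settled from the labels. YAP-M stands for 4 brain tumour libraries; here YAP-M DNA was delivered into the embryonic brain by in utero electroporation. The NSC-YAP group held 2 libraries of ES-derived neural progenitor cells that overexpressed YAP and, per the labels' protocols, grew in culture with EGF and basic FGF. The SVZ group held 3 libraries labelled wild-type, although their tissue label also reads brain tumour; the labels give no age, strain, promoter or number of animals for any group. Nothing in the labels says that the libraries of a group came from separate animals or cultures, so p-values measure the spread between these libraries, which may be technical.

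Interferons are secreted proteins that cells release when their sensors meet viral or misplaced nucleic acid. Type I interferons act through a complex, with STAT2 and IRF9 among its subunits, that binds the interferon-stimulated response element (ISRE), whereas the response to interferon gamma runs through the gamma-activated site (GAS). In the brain, microglia, macrophages, astrocytes and neurons can all respond, and many of these genes also keep a low tonic level without infection.

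Promoters of 31 of the 43 genes were in the table of RefSeq promoters (GRCm38.p6, the build also called mm10), each reaching from 250 bases before to 50 bases after a start of transcription. An ISRE-like run (GAAA, then 2 bases of any kind, then GAAA, on either strand) stood in the promoter of 17 of the 31 genes (54.8%), against 3.99% of the 27025 genes of the table. A GAS-like run (TTC, then 3 bases of any kind, then GAA, on either strand) stood in 10 of the 31 (32.3%), against 9.55% of all genes. A base can belong to matches of both motifs. Both motifs stood in 6 of the 31 genes (19.4%), against 0.54% of all genes. At least 1 of them stood in 21 (67.7%), against 12.9% of all genes. The 5 stretches that follow are shown because they belong to genes called between the YAP-M constructs (Igtp, Gbp2, Rsad2) or show a dense ISRE (Isg15) and a GAS alone (Irf1). Each is the 150 bases before the RefSeq start, 5′ to 3′ on the strand of the gene, with motif matches in capitals. A match is a run of letters and not a tested binding site.
Igtp (chr11:58199406-58199555, plus strand): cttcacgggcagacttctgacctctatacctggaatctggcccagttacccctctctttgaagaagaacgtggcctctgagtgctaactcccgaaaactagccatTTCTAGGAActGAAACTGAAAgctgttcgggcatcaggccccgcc
Gbp2 (chr3:142620513-142620662, plus strand): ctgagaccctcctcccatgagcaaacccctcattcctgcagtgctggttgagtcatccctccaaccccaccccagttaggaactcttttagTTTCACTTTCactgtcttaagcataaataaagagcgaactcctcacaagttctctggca
Rsad2 (chr12:26456453-26456602, minus strand): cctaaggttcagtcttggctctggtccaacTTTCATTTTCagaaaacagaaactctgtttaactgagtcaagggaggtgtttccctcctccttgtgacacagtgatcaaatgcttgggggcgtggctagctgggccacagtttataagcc
Isg15 (chr4:156200819-156200968, minus strand): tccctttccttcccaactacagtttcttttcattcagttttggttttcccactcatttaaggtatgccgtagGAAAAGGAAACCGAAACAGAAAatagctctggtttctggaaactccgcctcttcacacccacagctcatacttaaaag
Irf1 (chr11:53769864-53770013, plus strand): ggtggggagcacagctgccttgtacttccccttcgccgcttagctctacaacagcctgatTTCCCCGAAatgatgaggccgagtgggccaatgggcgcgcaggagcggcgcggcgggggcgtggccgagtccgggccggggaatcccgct
The Igtp stretch holds a GAS-like run 45 bases and an ISRE-like run 34 bases before the start. The ISRE-like runs of Gbp2 and Rsad2 lie on the opposite strand, and Isg15 holds 3 overlapping ISRE-like matches. Of the other genes that differed between the YAP-M constructs, the Oas3 window held an ISRE-like run and the Cmpk2 window held neither motif. Ciita, Iigp1, Zbp1 and Nlrc5, which also differed, had no promoter in the table and were not searched.

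Library totals ran from 20784130 to 25463303 counts, and 3 counts in a library correspond to 0.111 to 0.147 CPM (counts scaled to library size). Markers of microglia and macrophages summed to between 2469 and 2823 CPM in YMdIDR libraries, between 2054 and 3063 in YAP-M libraries, 77.8 and 80.9 in NSC-YAP libraries and between 462 and 626 in SVZ libraries. The 5 markers of neural progenitors did not move together between YMdIDR and NSC-YAP. Sox2 averaged 9.96 CPM in YMdIDR and 489 CPM in NSC-YAP, and Hes5 and Fabp7 were also lower in YMdIDR, whereas Nes averaged 398 CPM in YMdIDR and 173 CPM in NSC-YAP and Pax6 78.1 CPM in YMdIDR and 38.8 CPM in NSC-YAP, all 5 past the test. Endothelial markers summed to 72.3 to 104 CPM in YMdIDR libraries and to 4.08 to 4.97 CPM in NSC-YAP libraries. The YMdIDR libraries thus carried markers of blood vessels and macrophages that the cultured progenitors had at low levels or at 0, which goes against a tissue label of cultured cells alone.

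The level of the 43 genes was high in both YAP-M constructs and low in the other groups. Summed over the 43 genes, the level was 885, 1320 and 1227 CPM in the YMdIDR libraries, 780, 1082, 756 and 998 CPM in the YAP-M libraries, 147 and 151 CPM in the NSC-YAP libraries, and 172, 226 and 216 CPM in the SVZ libraries. The ranges of YMdIDR and YAP-M overlapped in this sum, and both stood above every NSC-YAP and SVZ library. By group mean, 31 of the 43 genes had the order YMdIDR, YAP-M, SVZ, NSC-YAP from high to low. The YAP-M mean exceeded the YMdIDR mean for 9 genes. At least 1 CPM in every library of the group was reached by 42 genes in YMdIDR, 42 in YAP-M, 16 in NSC-YAP and 33 in SVZ.

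**Figure D1:**
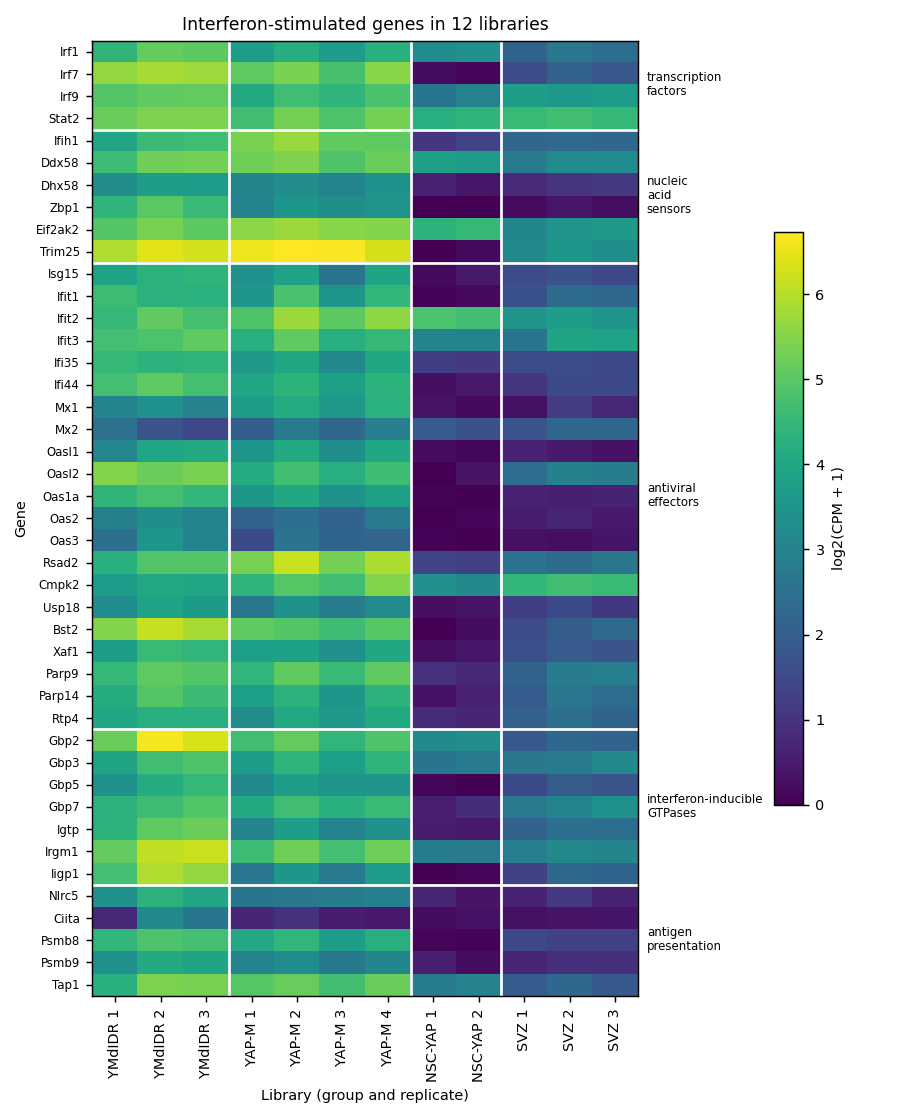
Level of each of the 43 interferon-stimulated genes as log2(CPM + 1), with genes in rows by role group and the 12 libraries in columns by group. YMdIDR and YAP-M libraries are brighter than NSC-YAP and SVZ libraries in most rows. Stat2, Ifit2, Mx2 and Cmpk2 are among the genes detected in all groups.

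Per kilobase of gene length as the files give it, Bst2, which tethers budding virus to the cell surface, had the highest group mean in both constructs, at 62.7 CPM per kb in YMdIDR and 32.2 CPM per kb in YAP-M. The next highest in YMdIDR were Gbp2 at 28.3 and Isg15 at 23.6 CPM per kb, and in YAP-M Trim25 at 16.4 and Isg15 at 14.1 CPM per kb. In NSC-YAP the highest was Ifit2 at 6.57 CPM per kb, and in SVZ it was Ifit3 at 6.32 CPM per kb. Ciita was the lowest in YAP-M at 0.112 CPM per kb, and in YMdIDR, at 0.881 CPM per kb, it was above Mx2 alone, at 0.814 CPM per kb.

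Within a group, certain libraries were low or high for most of the 43 genes. YMdIDR replicate 1 was the lowest of its 3 libraries for 38 of the 43 genes, and replicate 2 was the highest for 26. In YAP-M, replicates 1 and 3 were the lowest of the 4 libraries for 20 and 19 genes, and replicate 2 was the highest for 26. SVZ replicate 1 was the lowest of its 3 libraries for 30 genes.

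The comparison of YMdIDR with YAP-M asks what differs between the altered and the unaltered construct, although construct and kind of sample cannot be told apart where their labels differ too. Relative to YAP-M, 7 of the 43 genes rose in YMdIDR and 2 fell. The 7 were the class II transactivator gene Ciita, the GTPase genes Iigp1, Igtp and Gbp2, the sensor gene Zbp1, the class I transactivator gene Nlrc5 and the oligoadenylate synthetase gene Oas3, and the 2 were the antiviral genes Rsad2 and Cmpk2. Calls required an adjusted p under 0.05 (edgeR's quasi-likelihood test, Benjamini-Hochberg over all 18329 genes) and a log2 fold change of 1 or more or of -1 or less. The 7 genes are 16.3% of the 43, against 6.78% of all tested genes called higher, and the 2 are 4.65% of the 43, against 9.61% of all genes called lower. By adjusted p alone the counts were 18 higher and 4 lower, or 41.9% and 9.3% of the 43, against 22.9% and 20.6% of all genes. The libraries of the groups did not overlap for 16 genes that were higher (37.2%) and 5 that were lower (11.6%), against 22.5% and 18.9% of all genes. The median log2 fold change of the 43 was 0.55, with 34 above 0, and that of all genes was -0.01.

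**Figure D2:**
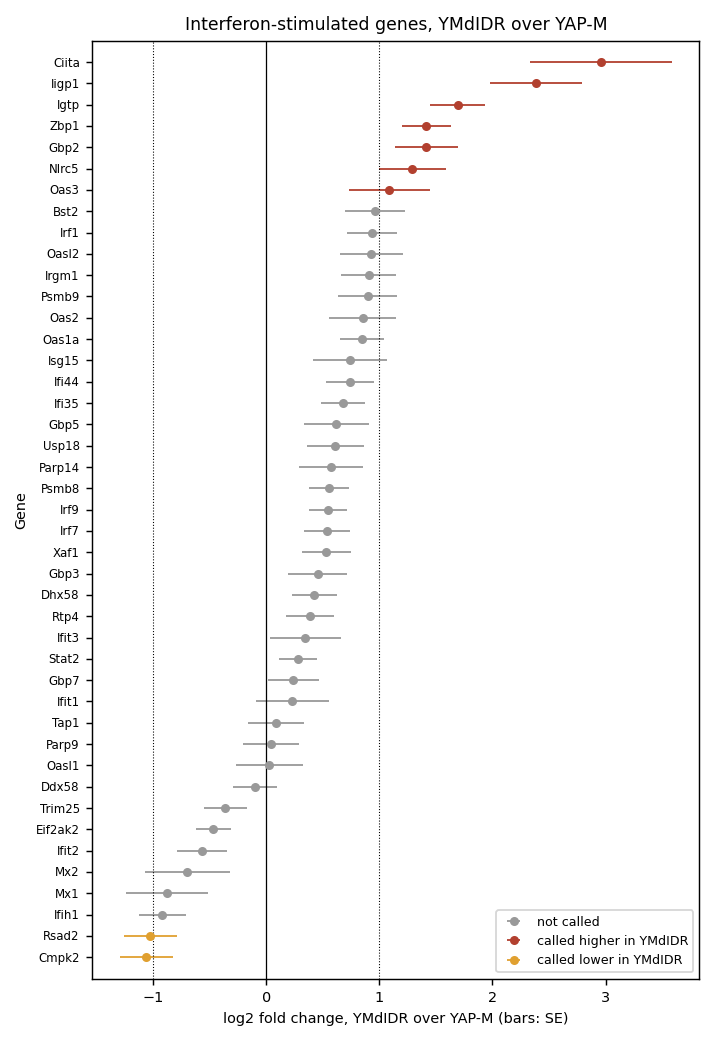
Log2 fold change of each of the 43 genes, YMdIDR over YAP-M, with bars for the standard error and dotted lines at 1 and -1. The 7 genes called higher lie from 1.09 (Oas3) to 2.96 (Ciita), and Rsad2 and Cmpk2 lie just past -1.

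The GTPases protect cells against vacuolar pathogens, and all 7 had a positive log2 fold change, with a median of 0.90 and 3 of them called. Iigp1 (Irga6), an immunity-related GTPase, had 25.4, 60.5 and 49.2 CPM in YMdIDR libraries, against 5.20, 10.9, 6.02 and 12.3 CPM in YAP-M libraries. Every YMdIDR library stood above every YAP-M library, and the log2 fold change was 2.39 ± 0.41 (SE, adjusted p = 0.00108).
Igtp (Irgm3; chr11:58199556-58207591, plus strand, mm10), a regulator of the other immunity-related GTPases, had 19.4, 32.2 and 36.5 CPM in YMdIDR libraries, against 7.22, 12.3, 7.17 and 9.63 CPM in YAP-M libraries. The groups did not overlap, and the log2 fold change was 1.69 ± 0.24 (SE, adjusted p = 0.000395). The span of Igtp lies almost whole inside that of Irgm2, its paralog, which had 11.9 to 20.1 CPM in YMdIDR and 4.90 to 8.87 CPM in YAP-M, and how shared reads were counted is not given in the sources used here.
Gbp2 (chr3:142620602-142638008, plus strand), a guanylate-binding protein gene, had 36.6, 98.5 and 78.6 CPM in YMdIDR libraries, against 24.7, 33.4, 20.5 and 28.3 CPM in YAP-M libraries. YMdIDR replicate 1 was only a little above the highest YAP-M library, and the log2 fold change was 1.41 ± 0.28 (SE, adjusted p = 0.0023). Irgm1, another regulator of the family, had a log2 fold change of 0.90 ± 0.24 (SE) and missed the size threshold. Gbp3, Gbp5 and Gbp7 had log2 fold changes of 0.45, 0.62 and 0.24 and did not pass the test; reads of these close paralogs may have been split between them.

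The 5 antigen presentation genes also all had positive log2 fold changes, with a median of 0.90 and 2 of them called. Ciita (chr16:10488178-10527564, plus strand), the master switch of MHC class II genes, had 0.685, 8.12 and 5.09 CPM in YMdIDR libraries, against 0.627, 0.928, 0.427 and 0.372 CPM in YAP-M libraries. Replicates 2 and 3 of YMdIDR stood far above YAP-M, whereas replicate 1 lay inside the YAP-M range. The log2 fold change was 2.96 ± 0.63 (SE, adjusted p = 0.00344), the largest of the 43 genes in this comparison, and it was 2.23 without YMdIDR replicate 2. The span of Ciita overlaps that of Dexi on the other strand, which had 9.56 to 14.6 CPM in YMdIDR and 8.00 to 9.81 CPM in YAP-M.
Nlrc5, the related switch of MHC class I genes, had 9.42, 19.2 and 14.6 CPM in YMdIDR libraries, against 5.12, 5.42, 6.11 and 6.84 CPM in YAP-M libraries. Its groups did not overlap (log2 fold change 1.29 ± 0.29, SE, adjusted p = 0.00505), but the value fell to 0.99 without YMdIDR replicate 2 and was then not called. The immunoproteasome subunit genes Psmb8 and Psmb9 had log2 fold changes of 0.55 and 0.90 and missed the size threshold. The peptide transporter gene Tap1 had 18.4, 41.1 and 40.0 CPM in YMdIDR libraries, against 30.2, 34.7, 24.7 and 35.5 CPM in YAP-M libraries, and the ranges overlapped (log2 fold change 0.09 ± 0.25, SE, adjusted p = 0.802).

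**Figure D3:**
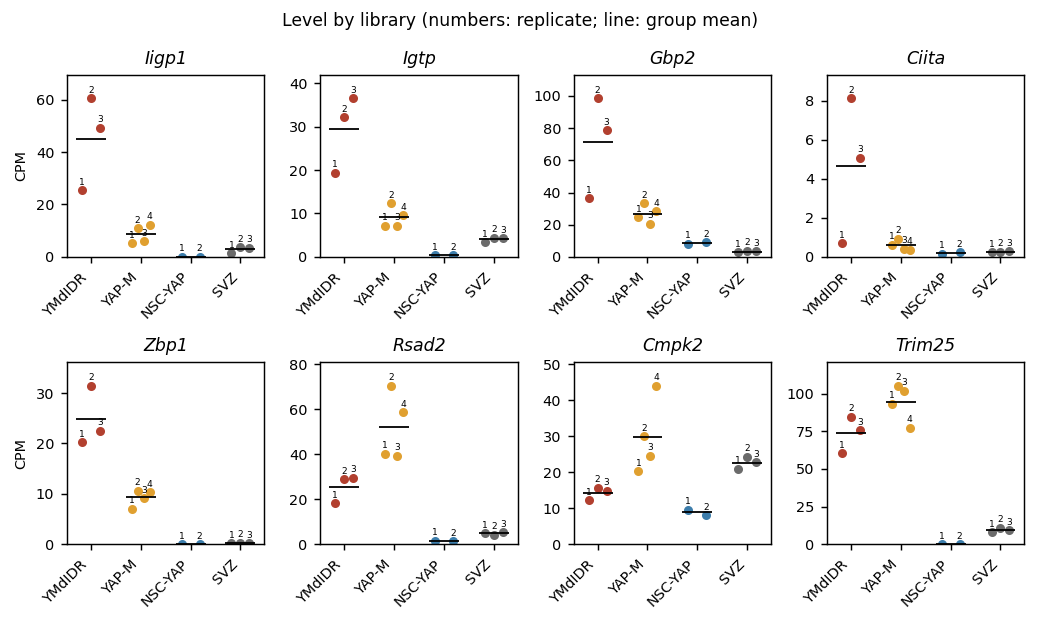
CPM of 8 interferon-stimulated genes in each library, with replicate numbers beside the points and a line at the group mean; each panel has its own axis from 0. YMdIDR replicate 1 is the lowest YMdIDR point in all 8 panels, and Trim25 and Zbp1 lie at or near 0 in NSC-YAP.

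The antiviral effectors and the sensors were divided. Of the 21 effectors, 16 had a positive and 5 a negative log2 fold change, with 1 called higher and 2 called lower. Rsad2 (viperin, chr12:26442746-26456452, minus strand), an enzyme that makes a chain-terminating nucleotide, had 18.3, 29.0 and 29.5 CPM in YMdIDR libraries, against 40.1, 70.4, 39.3 and 58.7 CPM in YAP-M libraries. Its neighbour Cmpk2 (chr12:26469204-26479837, plus strand), a mitochondrial nucleotide kinase gene, lies 12751 bases from the Rsad2 span and had 12.2, 15.7 and 14.9 CPM in YMdIDR libraries, against 20.2, 30.02, 24.6 and 44.1 CPM in YAP-M libraries. Neither gene's groups overlapped, and the log2 fold changes were -1.03 ± 0.23 for Rsad2 and -1.06 ± 0.23 for Cmpk2 (SE, adjusted p = 0.00492 and 0.00411). Both values lie close to the size threshold. Without YMdIDR replicate 1 they were -0.83 and -0.96, and without YAP-M replicate 4 they were -0.99 and -0.83, with the adjusted p under 0.05 each time but no call; Rsad2 was also not called without YAP-M replicate 2 (-0.84).

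Oas3, which makes the messenger that activates RNase L, had 4.50, 10.5 and 7.17 CPM in YMdIDR libraries, against 1.84, 4.94, 3.50 and 3.60 CPM in YAP-M libraries. YMdIDR replicate 1 lay below YAP-M replicate 2, and the call (log2 fold change 1.09 ± 0.36, SE, adjusted p = 0.0303) was lost on leaving out any 1 of YMdIDR replicates 2 and 3 and YAP-M replicates 1, 3 and 4, with values from 0.71 to 1.11. Ifit2, an RNA-binding effector, had 21.5, 33.1 and 25.9 CPM in YMdIDR libraries, against 28.2, 51.8, 31.8 and 47.2 CPM in YAP-M libraries, with overlap and a log2 fold change of -0.57 ± 0.22 (SE, adjusted p = 0.0583). Mx1 and Mx2, dynamin-like GTPases that restrict viruses, had log2 fold changes of -0.88 and -0.70 and did not pass the test. Among effectors with positive values, Bst2 (0.96), Oasl2 (0.93), Oas2 (0.85), Oas1a (0.84), Ifi44 (0.74) and Ifi35 (0.68) had an adjusted p under 0.05. Their groups did not overlap, but they missed the size threshold.

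Among the sensors, Zbp1 (chr2:173206612-173218923, minus strand), which senses Z-form nucleic acid and can start necroptosis, had 20.3, 31.5 and 22.6 CPM in YMdIDR libraries, against 7.08, 10.7, 9.10 and 10.3 CPM in YAP-M libraries. The lowest YMdIDR library exceeded the highest YAP-M library, and the log2 fold change was 1.42 ± 0.21 (SE, adjusted p = 0.000699). The other sensors did not follow. Ifih1, the gene of the RNA sensor MDA5, had 14.7, 23.1 and 24.5 CPM in YMdIDR libraries, against 40.2, 51.1, 32.8 and 32.7 CPM in YAP-M libraries. Those ranges did not overlap, but the log2 fold change of -0.92 ± 0.21 (SE, adjusted p = 0.00522) missed the size threshold. Trim25 (chr11:88999376-89020293, plus strand), a ubiquitin ligase that assists the RNA sensor RIG-I, had 60.4, 84.7 and 75.7 CPM in YMdIDR libraries, against 93.5, 105, 102 and 77.5 CPM in YAP-M libraries, with overlap (-0.36 ± 0.19, SE, adjusted p = 0.145).

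None of the 4 transcription factors was called between the constructs, and all 4 log2 fold changes were positive. Irf1, an early interferon gamma target, had 20.3, 34.3 and 31.8 CPM in YMdIDR libraries, against 12.4, 17.4, 12.04 and 18.4 CPM in YAP-M libraries, without overlap (0.94 ± 0.22, SE, adjusted p = 0.00593). Stat2 had 35.4, 41.9 and 42.4 CPM in YMdIDR libraries, against 24.5, 39.5, 28.6 and 39.0 CPM in YAP-M libraries, with overlap (0.28 ± 0.17, SE, adjusted p = 0.197).

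Genes upstream of the 43, which are not members, were listed by role: 10 interferons, 9 receptors and kinases, 12 genes of the induction pathway and 8 negative regulators and nucleic acid enzymes. In YMdIDR over YAP-M, 27 of these 39 were tested, 6 rose and 2 fell. Of all genes, 6.78% were called higher and 9.61% lower. Socs1, the feedback inhibitor of the kinases, had 4.15, 7.08 and 5.35 CPM in YMdIDR libraries, against 1.18, 2.19, 1.62 and 1.52 CPM in YAP-M libraries, without overlap (1.76 ± 0.27, SE, adjusted p = 0.000575). The other 5 that rose were Tmem173 (STING, 1.23), the adaptor gene Ticam1 (1.34), the kinase gene Ikbke (1.06) and the transcription factor genes Irf3 (1.14) and Irf5 (1.02).
The 2 that fell were Jak2, a kinase of the interferon gamma receptor, and Tlr7, an endosomal RNA sensor. Jak2 had 46.7, 46.5 and 32.0 CPM in YMdIDR libraries, against 109, 122, 113 and 104 CPM in YAP-M libraries (-1.43 ± 0.13, SE, adjusted p = 3.65e-05). The receptor gene Ifngr1 had a log2 fold change of -0.87 and its partner Ifngr2 one of 0.61, and neither reached the size threshold.

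Interferon transcripts were near the floor of detection. None of the 10 interferon genes passed the filter. Their summed level was 0.0856, 0.541 and 0.133 CPM in YMdIDR libraries, against 0.295, 0.445, 0.683 and 0.186 CPM in YAP-M libraries. It was 0.0408 and 0 CPM in NSC-YAP libraries, and 0 in every SVZ library. Ifng had 0.0856, 0.496 and 0.133 CPM in YMdIDR libraries, against 0, 0.0371, 0.214 and 0 CPM in YAP-M libraries, with overlap. At 2, 11 and 3 counts of Ifng in YMdIDR libraries and 0, 1, 5 and 0 counts in YAP-M libraries, the gene was under the filter on low counts and was not tested. Other interferon genes leaned the other way. Ifnb1 had 0, 1 and 0 counts in YMdIDR libraries, against 1, 6, 2 and 4 counts in YAP-M libraries. Ifnk had no count in YMdIDR libraries, against 7, 1, 4 and 1 counts in YAP-M libraries. Between these groups, Ifne, Ifna4, Ifnl2 and Ifnl3 had counts in YAP-M libraries alone.

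Between YMdIDR and YAP-M, the summed microglia and macrophage markers overlapped (2469 to 2823 CPM in YMdIDR, 2054 to 3063 CPM in YAP-M), with Tmem119 of the 12 markers called higher and none lower. The 5 dendritic cell markers summed to 26.97, 65.2 and 56.4 CPM in YMdIDR libraries, against 34.5, 25.1, 26.1 and 43.4 CPM in YAP-M libraries, and Itgax made most of it with 16.9, 46.3 and 39.2 CPM in YMdIDR libraries, against 23.2, 15.99, 19.7 and 31.8 CPM in YAP-M libraries. Of the dendritic cell markers, Siglech was called higher in YMdIDR (1.06) and Flt3 lower (-1.97). The 11 T and NK cell markers summed to 2.997, 6.497 and 4.78 CPM in YMdIDR libraries, against 3.58, 3.53, 2.26 and 2.79 CPM in YAP-M libraries, with 10 of the 11 under 1 CPM in every library of each group and Ncr1 at 0 in every YAP-M library. In these sums of dendritic and of T and NK cell markers YMdIDR replicate 1 was the lowest of its group, as it was for most of the 43 genes. The same library was also the lowest for neural progenitor markers (504 CPM). It was the highest of its group for markers of microglia and macrophages (2823 CPM), neutrophils (59.8 CPM) and endothelium (104 CPM). Its sums of neuronal (117 CPM), oligodendrocyte (907 CPM) and ependymal markers (23.4 CPM) were the highest too. Endothelial markers summed to 72.3 to 104 CPM in YMdIDR libraries, against 144 to 211 CPM in YAP-M libraries, without overlap, and 3 of the 5 (Pecam1, Cldn5 and Tek) were called lower. The 4 neutrophil markers summed to 59.8, 29.8 and 29.7 CPM in YMdIDR libraries, against 30.7, 33.3, 38.4 and 30.1 CPM in YAP-M libraries. Csf3r (0.55) and Cxcr2 (0.47) had positive log2 fold changes and were not called, whereas S100a8 (-1.87) and S100a9 (-2.73) were called lower. The neuronal marker Dcx (-1.47), the ependymal marker Dnah11 (-2.89) and the progenitor marker Sox2 (-1.34) were also called lower, and the progenitor marker Nes higher (1.84). The part of these cells in the differences was not tested. In such bulk samples, fewer cells of a type and less RNA per cell cannot be told apart.

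**Figure D4:**
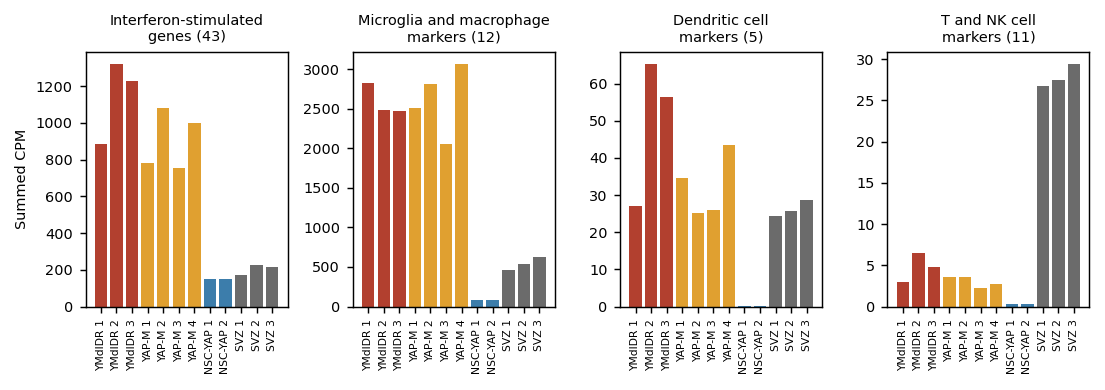
Summed CPM in each library, from left to right, of the 43 interferon-stimulated genes and of the markers of microglia and macrophages (12), dendritic cells (5) and T and NK cells (11); each panel has its own axis from 0. Macrophage markers overlap between YMdIDR and YAP-M and are low in NSC-YAP; the T and NK sum of the SVZ libraries is nearly all Cd4.

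The comparisons with SVZ set tumour or progenitor samples against wild-type samples; they share the SVZ libraries, so their values stand side by side and are not independent. In YMdIDR over SVZ, 40 of the 43 genes (93%) rose and none fell, against 26.9% of all genes called higher and 29.6% called lower. In YAP-M over SVZ, 38 of the 43 (88.4%) rose and none fell, against 25.8% and 28.9% of all genes. The median log2 fold changes of the 43 were 2.97 in YMdIDR over SVZ and 2.37 in YAP-M over SVZ, against -0.01 and -0.04 over all genes. By role, the 6 sensors and the 7 GTPases all rose in both comparisons, 19 of the 21 effectors rose in each, and the antigen presentation genes rose 5 of 5 in YMdIDR and 4 of 5 in YAP-M.

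Zbp1 had the largest rise of both. It had 20.3, 31.5 and 22.6 CPM in YMdIDR libraries and 7.08, 10.7, 9.10 and 10.3 CPM in YAP-M libraries, against 0.138, 0.315 and 0.196 CPM in SVZ libraries. The log2 fold changes were 6.80 ± 0.34 in YMdIDR and 5.38 ± 0.32 in YAP-M over SVZ (SE, adjusted p = 5.47e-08 and 2.29e-07), on 14 counts in all in the SVZ group.
Oas1a (chr5:120896256-120907521, minus strand), an oligoadenylate synthetase gene with close paralogs beside it, had 20.4, 25.7 and 20.4 CPM in YMdIDR libraries and 10.9, 15.4, 9.95 and 13.2 CPM in YAP-M libraries, against 0.600, 0.495 and 0.587 CPM in SVZ libraries. Its log2 fold changes were 5.29 ± 0.27 in YMdIDR and 4.45 ± 0.26 in YAP-M over SVZ (SE, adjusted p = 2.92e-08 and 8.56e-08). Oasl1, a relative that restrains Irf7 translation in mice, had 7.71, 14.9 and 16.4 CPM in YMdIDR libraries and 10.6, 15.99, 9.23 and 15.2 CPM in YAP-M libraries, against 0.554, 0.405 and 0.245 CPM in SVZ libraries. Neither construct overlapped SVZ, with log2 fold changes of 4.99 ± 0.41 in YMdIDR and 4.97 ± 0.40 in YAP-M over SVZ (SE, adjusted p = 8.89e-07 and 8.76e-07). Irf7, the amplifier of type I interferon production, had 49.2, 56.3 and 52.8 CPM in YMdIDR libraries and 32.6, 40.9, 26.1 and 45.6 CPM in YAP-M libraries, against 1.89, 3.33 and 2.54 CPM in SVZ libraries.

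Stat2, a subunit of the complex that carries the type I signal, was not called in either comparison. It had 35.4, 41.9 and 42.4 CPM in YMdIDR libraries and 24.5, 39.5, 28.6 and 39.0 CPM in YAP-M libraries, against 22.2, 24.9 and 21.3 CPM in SVZ libraries. Every YMdIDR library stood above every SVZ library, the YAP-M range overlapped that of SVZ, and the log2 fold changes over SVZ were 0.80 ± 0.18 in YMdIDR and 0.53 ± 0.17 in YAP-M (SE, adjusted p = 0.00164 and 0.0139), under the size threshold. Irf9 rose in YMdIDR over SVZ (1.42 ± 0.19, SE, adjusted p = 3.19e-05) and missed the size threshold in YAP-M over SVZ (0.87 ± 0.18, SE, adjusted p = 0.000804). Socs3, an inhibitor of cytokine receptors, had the largest rise of the upstream genes, with log2 fold changes of 5.94 in YMdIDR and 6.11 in YAP-M over SVZ. Of the 27 upstream genes tested, 18 rose and 1 fell in YMdIDR over SVZ, against 26.9% and 29.6% of all genes. In YAP-M over SVZ, 16 rose and 1 fell, against 25.8% and 28.9% of all genes. The gene that fell in both was Adar, which edits double-stranded RNA (-1.01 and -1.19).

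Among the 43, Mx2 and Cmpk2 also were not called in either comparison. Cmpk2 had 12.2, 15.7 and 14.9 CPM in YMdIDR libraries and 20.2, 30.02, 24.6 and 44.1 CPM in YAP-M libraries, against 20.9, 24.3 and 22.7 CPM in SVZ libraries. The YMdIDR libraries lay below every SVZ library and the YAP-M range held all 3 SVZ values (log2 fold changes -0.67 in YMdIDR and 0.39 in YAP-M over SVZ). Ciita had 0.685, 8.12 and 5.09 CPM in YMdIDR libraries and 0.627, 0.928, 0.427 and 0.372 CPM in YAP-M libraries, against 0.231, 0.270 and 0.294 CPM in SVZ libraries. It rose in YMdIDR over SVZ (4.10 ± 0.78, SE, adjusted p = 0.000494) and was not called in YAP-M over SVZ (1.14 ± 0.77, SE, adjusted p = 0.194), although neither group overlapped SVZ. Ifit3 was called in YAP-M over SVZ at 1.03, and not without YAP-M replicate 2 (0.88) or SVZ replicate 1 (0.73).

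**Figure D5:**
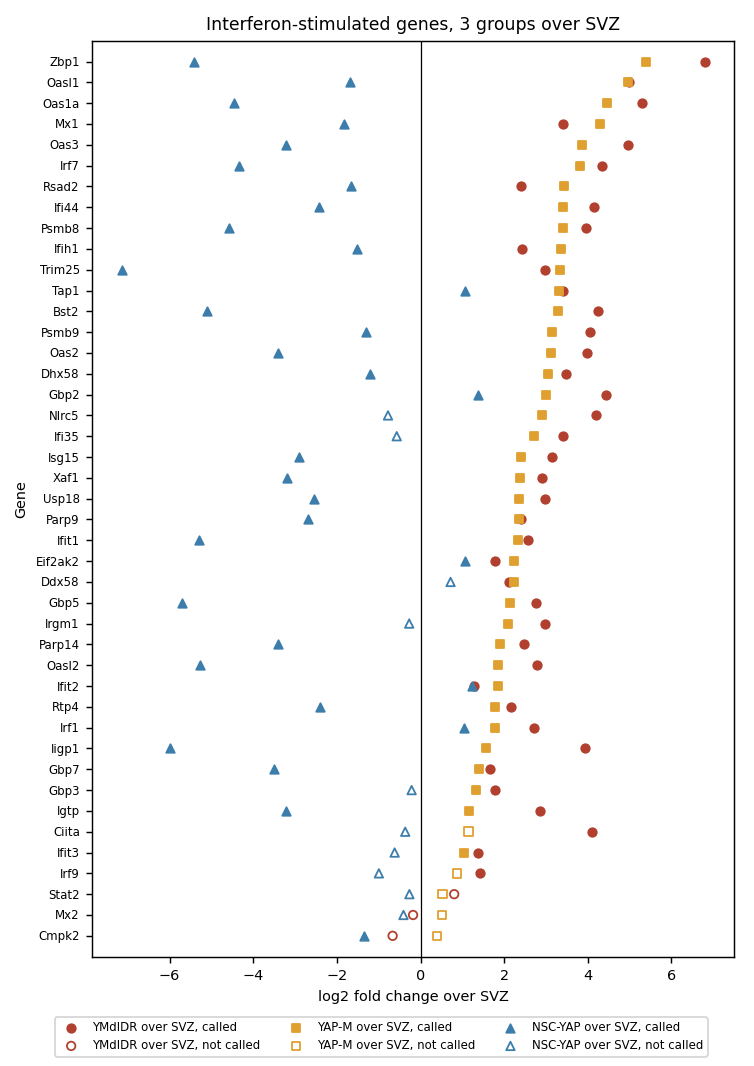
Log2 fold change over SVZ of each of the 43 genes in YMdIDR (circles), YAP-M (squares) and NSC-YAP (triangles), filled where called and ordered by the YAP-M value. YMdIDR and YAP-M lie right of 0 apart from Mx2 and Cmpk2 in YMdIDR, and 37 NSC-YAP points lie left of 0; for the 8 genes with 3 counts or fewer in NSC-YAP the fitted triangle is no measure of size.

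Markers of other cells moved with these comparisons. Microglia and macrophage markers summed to 2469 to 2823 CPM in YMdIDR and 2054 to 3063 CPM in YAP-M, against 462 to 626 CPM in SVZ, with 9 of 12 called higher and 1 lower in YMdIDR and 10 of 12 called higher and none lower in YAP-M. P2ry12, a marker of resting microglia, had 19.7 to 35.0 CPM in YMdIDR and 37.1 to 64.7 CPM in YAP-M, against 74.7 to 105 CPM in SVZ. Oligodendrocyte markers summed to 273 to 907 CPM in YMdIDR and 493 to 2567 CPM in YAP-M, against 22600 to 27060 CPM in SVZ. Neuronal markers summed to 16.6 to 117 CPM in YMdIDR and 80.04 to 270 CPM in YAP-M, against 2209 to 2405 CPM in SVZ. Neutrophil markers summed to 29.7 to 59.8 CPM in YMdIDR and 30.1 to 38.4 CPM in YAP-M, against 7.52 to 10.3 CPM in SVZ. Csf3r made most of these sums, with means of 36.9 CPM in YMdIDR, 25.3 CPM in YAP-M and 7.405 CPM in SVZ. S100a8 and S100a9 were not called in YMdIDR over SVZ (1.35 and -1.35). Both were called higher in YAP-M over SVZ (3.22 and 1.38), and Csf3r and Cxcr2 were called higher in both comparisons. Mitochondrial genes took 5.55% to 6.03% of the counts in YMdIDR libraries, 4.91% to 6.504% in YAP-M libraries and 6.96% to 7.05% in NSC-YAP libraries, against 12.7% to 16.98% in SVZ libraries. The part of cell makeup and of the mitochondrial share in the rise of the 43 genes was not tested.

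The NSC-YAP libraries had the lowest levels for most of the 43 genes. In NSC-YAP over SVZ, 5 genes (11.6%) rose and 28 (65.1%) fell, against 17.5% and 27.6% of all genes called higher and lower. The median log2 fold change was -1.84, or -1.83 with Zbp1 at its bound, against -0.10 over all genes. The effectors fell in 17 of 21 cases, with 1 rise.

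Trim25 had 0 and 0.122 CPM in NSC-YAP libraries, or 3 counts in all, against 8.12, 10.9 and 9.25 CPM, or 606 counts, in SVZ libraries. The SVZ level was 154 times the NSC-YAP level, with a 95% interval from counting of 52.4 to 748. Against the same 3 counts, the level was 1199 times as high in YMdIDR (410 to 5816) and 1542 times as high in YAP-M (527 to 7477). Iigp1 had 2 counts in NSC-YAP, against 188 counts in SVZ, a level 71.6 times as high in SVZ (19.6 to 596), and Gbp5 had 2 counts in NSC-YAP, against 154 counts in SVZ, a level 58.7 times as high in SVZ (15.97 to 489).
Zbp1 had no count in NSC-YAP, against 14 counts in SVZ, and with a floor of 3 counts over the group it was at least 3.56-fold lower in NSC-YAP than in SVZ. It was at least 403-fold higher in YMdIDR than in NSC-YAP, and at least 152-fold higher in YAP-M than in NSC-YAP.

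The 5 genes that rose in NSC-YAP over SVZ came 1 from each role group. Gbp2 had 8.15 and 9.07 CPM in NSC-YAP libraries, against 2.72, 3.78 and 3.43 CPM in SVZ libraries (log2 fold change 1.38 ± 0.36, SE, adjusted p = 0.00538). Ifit2 had 27.3 and 24.3 CPM in NSC-YAP libraries, against 10.4, 12.5 and 10.1 CPM in SVZ libraries (1.23 ± 0.26, SE, adjusted p = 0.00157). Tap1 had 6.28 and 6.94 CPM in NSC-YAP libraries, against 2.86, 3.83 and 2.74 CPM in SVZ libraries (1.07 ± 0.32, SE). Eif2ak2, the gene of the RNA-activated kinase PKR, had 19.5 and 21.9 CPM in NSC-YAP libraries, against 7.52, 10.5 and 11.6 CPM in SVZ libraries (1.07 ± 0.18, SE). The last was Irf1 (1.04 ± 0.27, SE). For these 3 genes both NSC-YAP libraries stood above every SVZ library. Their calls lie at the size threshold: none of the 3 was called without NSC-YAP replicate 2, Eif2ak2 and Irf1 were not called without SVZ replicate 1, and Tap1 was not called without SVZ replicate 3.
Of the 27 upstream genes tested, 3 rose and 4 fell in NSC-YAP over SVZ, against 17.5% and 27.6% of all genes. The 4 that fell were Tlr7, Tlr9, Irf5 and Ptpn6, and the 3 that rose were Mavs, the mitochondrial adaptor of the RNA sensors (1.80), Ticam1 (1.52) and Socs3 (2.59). All 8 tested genes of the receptor and kinase list stayed under the size threshold, and the type I receptor gene Ifnar1 had a mean of 72.1 CPM in NSC-YAP, against 36.1 CPM in SVZ. Of the 12 microglia and macrophage markers, 8 were under 1 CPM in both NSC-YAP libraries, with 11 called lower than in SVZ, and 3 of 4 neutrophil markers and 8 of 11 T and NK markers were at 0. The part of this absence in the lower levels was not tested.

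Set against NSC-YAP, both constructs had higher levels of nearly every gene of the list. In YMdIDR over NSC-YAP 39 of the 43 genes (90.7%) rose and none fell, against 27.4% of all genes called higher and 20.4% called lower. In YAP-M over NSC-YAP 38 (88.4%) rose and none fell, against 28.9% and 21.6% of all genes. The median log2 fold changes were 5.14 and 4.90, against 0.13 and 0.10 over all genes.
Ifit2 was the least different, with log2 fold changes of 0.06 ± 0.26 in YMdIDR and 0.62 ± 0.25 in YAP-M over NSC-YAP (SE, adjusted p = 0.857 and 0.0448). Stat2 had 35.4 to 42.4 CPM in YMdIDR libraries and 24.5 to 39.5 CPM in YAP-M libraries, against 17.6 and 20.4 CPM in NSC-YAP libraries, and its log2 fold changes were 1.07 ± 0.21 in YMdIDR, not called without NSC-YAP replicate 1 (0.95), and 0.79 ± 0.20 in YAP-M. Irf7 had 49.2, 56.3 and 52.8 CPM in YMdIDR libraries and 32.6, 40.9, 26.1 and 45.6 CPM in YAP-M libraries, against 0.163 and 0.0817 CPM, or 4 and 2 counts, in NSC-YAP libraries. It rose by log2 fold changes of 8.69 ± 0.43 in YMdIDR and 8.15 ± 0.43 in YAP-M over NSC-YAP (SE, adjusted p = 2.96e-08 and 3.79e-08). The size of both values rests on those few NSC-YAP counts. Oas1a, with 1 count in NSC-YAP, had a level 1085 times as high in YMdIDR (194 to 42880) and 609 times as high in YAP-M (109 to 24070).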

How the data were processed

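RNA-seq counts of 12 mouse libraries were used; the 5 other samples of the series were not analysed here. TopHat2 and mm10 are named in the submitters' processing notes. How reads were assigned to genes (program, strand, shared reads, annotation) is not given in the sources used here. Genes that overlap (Irf7 with Phrf1, Irf9 with Rnf31, Igtp with Irgm2, Ciita with Dexi, Rtp4 with Masp1, Parp9 with Dtx3l, Psmb9 with Tap1) and close paralogs (Oas, Ifit, Gbp, Mx) are therefore uncertain. The deposited files hold raw counts for 53090 genes, 1 library a file, with gene length, and lines of 1 symbol were summed. Groups and replicate numbers came from the titles.

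Counts were scaled with TMM factors (0.827 to 1.13) and tested in R 4.3.3 with edgeR 4.0.16 (quasi-likelihood test), all 4 groups in 1 fit, on 18329 genes that reached 1 CPM in 2 libraries or more. P-values were adjusted by Benjamini-Hochberg over these genes. SE marks the standard error of a log2 fold change. Folds on 1 to 3 counts have exact 95% intervals, and a group at 0 was set to 3 counts over the group; both cover counting error only, since PCR reads are not independent molecules. No replicate pair agreed within sampling noise (chi-square per gene 4.18 to 84.9).

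The members, role groups and gene lists were chosen with earlier results of these data known. In addition to the upstream genes listed, 1 gene is not reported here. All 43 may be named; values in every library (for Iigp1 and Gbp5 in NSC-YAP over SVZ, summed counts) went, in each comparison, to the 3 largest called rises and falls, members called against their role group, and the gene with the highest mean CPM of each role group; others were named after their values were seen. Alternatives were median-ratio scaling, no filter, the compared groups alone, a replicate block, DESeq2 1.42.0 and leaving out each library. Promoters came from RefSeq (GRCm38.p6). Figures were drawn with matplotlib 3.10.9.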

Additional observations from a re-analysis of the deposited data

How the results depend on the processing

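The counts of the 43 genes called higher or lower stayed within 1.5 times the reported count under median-ratio scaling, no filter, the compared groups alone and DESeq2, in all 6 comparisons. With the compared groups alone, 8 of the 43 genes did not pass the filter in NSC-YAP over SVZ and were not tested, and Oas3 lost its call in YMdIDR over YAP-M (adjusted p = 0.0614 with edgeR). Without YMdIDR replicate 1, 11 genes were called higher in YMdIDR over YAP-M, and the 1 called lower was Mx2 (-1.23). The 1 called lower was Cmpk2 (-1.05) without YAP-M replicate 2 and Ifih1 (-1.02) without YAP-M replicate 4. Ifih1 was also called lower without YMdIDR replicate 2 (-1.04) or 3 (-1.05) and without YAP-M replicate 3 (-1.02). Leaving out each library in turn gave 5 to 11 genes called higher and 1 to 3 called lower in YMdIDR over YAP-M. In NSC-YAP over SVZ it gave 2 to 5 called higher (2 without NSC-YAP replicate 2, 3 without SVZ replicate 1) and 24 to 28 called lower. It gave 37 to 39 called higher in YAP-M over SVZ, 40 in YMdIDR over SVZ, 38 to 39 in YAP-M over NSC-YAP and 38 to 39 in YMdIDR over NSC-YAP; where it left NSC-YAP with 1 library, that library was assumed to vary like the other groups.

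Whether replicate numbers pair the libraries cannot be told from these data. Deviations of same-numbered YMdIDR and YAP-M libraries correlated at 0.0011, 0.39 and 0.12. YMdIDR replicates 2 and 3 correlated best with the YAP-M library of the same number, whereas YMdIDR replicate 1 correlated best with YAP-M replicate 4 (0.26). With the replicate block, 10 genes were called higher in YMdIDR over YAP-M, Irf1 (1.03), Oasl2 (1.04) and Oas2 (1.04) in addition to the 7, and 1 gene, Ifih1 (-1.01), was called lower, while Rsad2 (-0.96) and Cmpk2 (-0.80) were not. In NSC-YAP over SVZ it left 26 genes called lower, without Oasl1 and Psmb9.

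Of 833 refitted values of the genes with full statistics, 810 kept direction and call, 18 lost the call and 5 turned sign. These 5 were uncalled: with 1 library left out, Tap1 in YMdIDR over YAP-M reached 0.38 at most and was -0.14 without YMdIDR replicate 2, -0.07 without YMdIDR replicate 3 and -0.03 without YAP-M replicate 3, and Ifit2 in YMdIDR over NSC-YAP reached 0.20 at most and was -0.12 without YMdIDR replicate 2 and -0.04 without NSC-YAP replicate 2. The causes were not tested. Median-ratio scaling moved the median of all genes in YAP-M over NSC-YAP to 0.19. Depth limits the interferon genes and the 8 members with 3 counts or fewer in NSC-YAP.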
